A study of Homo sapiens with 12 samples.

Results

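The genes described here encode proteins that recognise damaged DNA and commit it to nucleotide excision repair: DDB1, DDB2, XPC, RAD23B, CETN2, XPA, ERCC5, ERCC6 and ERCC8. A gene was measured where a row of the array table was paired with its symbol alone, and this held for 7 of the 9 genes, among 14232 genes in all. The row of XPA was shared with NCBP1 and that of ERCC6 with PGBD3, so these 2 genes have no value. Each measured gene had 1 row of its own. ERCC8 had a further row, shared with GNL3L and GNL3LP1, which was not used.

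RNA came from A549, a human lung adenocarcinoma cell line with wild-type p53 and the only cell line on these arrays. Cells were exposed to cisplatin for 24 h (3 arrays) or 48 h (3 arrays), or left untreated for 24 h (3 arrays) or 48 h (3 arrays), which gave 12 Affymetrix exon arrays. The drug was given at its IC10, termed the no-observed-effect level (NOEL), so the comparison asks how cells respond to a dose that costs few of them. The arrays of a condition are stated to come from 3 independent experiments, but the labels do not tie single arrays to experiments, so the p-values measure the spread between arrays. In cell populations, less RNA per cell and fewer cells of a kind cannot be told apart.

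Cisplatin joins neighbouring bases of DNA, and the resulting intrastrand adducts are removed by nucleotide excision repair. Damage is found along 2 routes. In global genome repair, DDB2 binds the lesion as the small subunit of UV-DDB, with DDB1 linking it to a CUL4 ubiquitin ligase, and XPC, held in a complex by RAD23B and CETN2, binds the strand opposite the lesion. In transcription-coupled repair, a stalled RNA polymerase is met by ERCC6 (CSB) and ERCC8 (CSA). Both routes then recruit TFIIH, XPA and the nuclease ERCC5 (XPG). DDB2 and XPC are known p53 target genes in human cells.

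The promoters of DDB2 and XPC are shown because these genes carried the difference described below. All 9 genes had at least 1 window in the RefSeq annotation of GRCh38.p14, running from 250 bases before to 50 bases after a transcript start, with 13 windows in all. Capitals mark the p53 consensus decamer, a pattern of 10 bases searched without mismatch on both strands.
DDB2, second start, chr11:47214724-47215023, plus strand: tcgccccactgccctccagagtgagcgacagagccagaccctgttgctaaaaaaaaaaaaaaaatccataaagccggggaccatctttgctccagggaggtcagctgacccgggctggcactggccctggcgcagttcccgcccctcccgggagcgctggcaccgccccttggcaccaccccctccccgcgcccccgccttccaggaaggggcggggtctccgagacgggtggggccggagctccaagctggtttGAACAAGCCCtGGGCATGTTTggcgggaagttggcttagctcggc
XPC, chr3:14178552-14178851, minus strand: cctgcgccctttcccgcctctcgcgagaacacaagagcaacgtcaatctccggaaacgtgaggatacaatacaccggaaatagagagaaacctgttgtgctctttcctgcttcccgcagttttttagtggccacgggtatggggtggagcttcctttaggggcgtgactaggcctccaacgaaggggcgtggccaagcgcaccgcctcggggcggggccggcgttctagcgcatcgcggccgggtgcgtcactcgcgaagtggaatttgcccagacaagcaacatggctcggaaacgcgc

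The decamer occurred in 2329 of 35116 promoter windows (6.63%). The second DDB2 window held 2 copies, GAACAAGCCC at chr11:47214979-47214988 and GGGCATGTTT at chr11:47214990-47214999. They lay 1 base apart, as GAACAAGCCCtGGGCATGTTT, and covered bases 6 to 26 on the transcribed side of the start. Pairs of decamers no more than 13 bases apart, a search added after these sequences had been seen, occurred in 10 of all windows (0.0285%). The first DDB2 window (chr11:47214204-47214503), the XPC window and the windows of DDB1, RAD23B, CETN2, ERCC5, ERCC8, XPA and ERCC6 held no exact decamer. The letters CATG, the core of many p53 sites, were found in 54.9% of all windows. They stood in the second DDB2 window and the windows of XPC, ERCC5, ERCC8 and ERCC6, but not in the first DDB2 window or those of DDB1, RAD23B, CETN2 and XPA. A match describes letters in a window and not binding.

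Among the 7 measured genes, DDB2 and XPC were higher in cisplatin-treated cells on every array, while their partners DDB1, RAD23B and CETN2 passed none of the thresholds on p used for single genes. DDB2 was 1.58-fold higher (95% interval 1.35 to 1.86) and XPC was 1.36-fold higher (1.22 to 1.52) over both times, with 6 arrays per treatment. At an unadjusted p under 0.005, the limit in the study's methods, 2 of the 7 genes were higher and 0 were lower, where 0.415% of all genes were higher. After Benjamini-Hochberg adjustment over all genes in limma, 0 of the 7 passed 0.05, with DDB2 at 0.0501 and XPC at 0.0537, and 0.0281% of all genes passed. Both genes passed it without untreated 48 h replicate 1 and under 6 of 8 other ways of fitting, and DDB2 alone passed without replicate 1 or 3 of untreated 24 h. At an unadjusted p under 0.05 the count was likewise 2 of 7 higher, against 1.73% of all genes. The median log2 difference of the 7 genes was 0.14, with 6 of them positive, and that of all genes was 0.01.

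**Figure D1:**
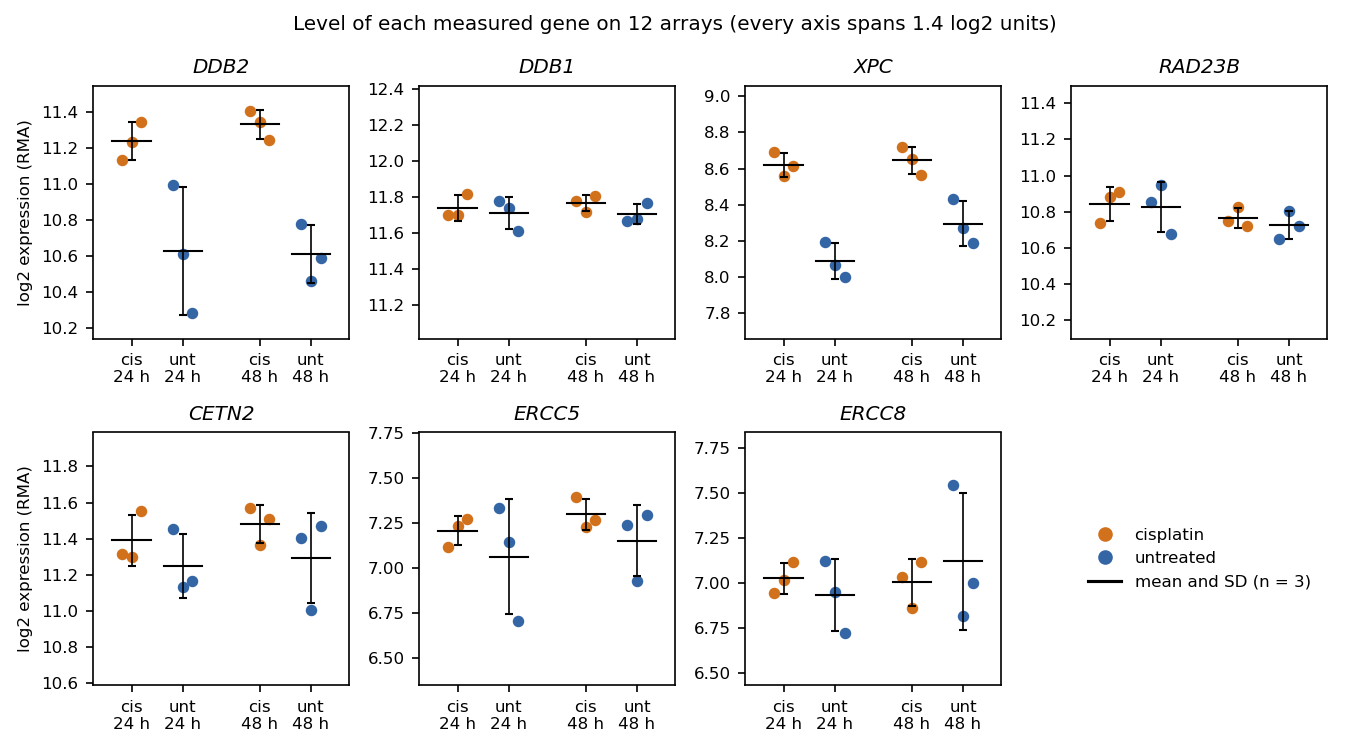
Log2 expression of the 7 measured genes on each array (points), by treatment and time, with the mean and SD of 3 arrays. Every axis spans the same 1.4 log2 units, so the steps between treatments can be compared between genes but the heights cannot. The 6 cisplatin points of DDB2 and of XPC lie above all 6 untreated points of the same gene, and the points of the other 5 genes overlap.

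DDB2 encodes the lesion-binding subunit of UV-DDB. After 24 h its log2 expression was 11.13, 11.23 and 11.35 on the cisplatin arrays, against 11.00, 10.61 and 10.28 on the untreated arrays. After 48 h it was 11.40, 11.35 and 11.25 on the cisplatin arrays, against 10.78, 10.46 and 10.59 on the untreated arrays. The lowest cisplatin array lay above the highest untreated array, which was replicate 1 of 24 h. DDB2 averaged 11.28 ± 0.10 in cisplatin-treated cells and 10.62 ± 0.25 in untreated cells (SD, n = 6 each). The difference was 0.66 on the log2 scale (SE 0.11), and by p DDB2 ranked 5 among the 14232 genes.

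DDB1, the large subunit of UV-DDB and the adaptor of the CUL4 ligase, stayed within a narrow range. After 24 h its log2 expression was 11.70, 11.70 and 11.82 with cisplatin, against 11.78, 11.74 and 11.61 untreated. After 48 h it was 11.78, 11.72 and 11.81 with cisplatin, against 11.66, 11.68 and 11.77 untreated. The groups overlapped. The difference over both times was 0.05 on the log2 scale, with a 95% interval of -0.10 to 0.19 (limma adjusted p = 0.991), so the upper bound lies below the lower bound of 0.44 for DDB2.

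XPC, the subunit that senses the unpaired strand opposite a lesion, had log2 expression of 8.69, 8.56 and 8.61 on the cisplatin arrays of 24 h, against 8.19, 8.07 and 7.997 on the untreated arrays. After 48 h its values were 8.72, 8.65 and 8.57 with cisplatin, against 8.43, 8.27 and 8.19 untreated. The groups did not overlap, and the untreated arrays of 48 h came closer to the cisplatin arrays than those of 24 h did. XPC averaged 8.63 ± 0.07 in cisplatin-treated cells and 8.19 ± 0.15 in untreated cells (SD, n = 6 each). The difference was 0.44 on the log2 scale (SE 0.08, 95% interval 0.28 to 0.60), and by p XPC ranked 9 of all genes.

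Every cisplatin array lay above every untreated array for 2 of the 7 genes, DDB2 and XPC, where this held for 0.218% of all genes. It held for both with any single array left out, but this was fixed in advance, since removing an array cannot create an overlap. Untreated 24 h replicate 3 stood apart, with a mean correlation with the other arrays of 0.972, while those of the other 11 ranged from 0.987 to 0.990. It had the lowest value of DDB2 and of XPC. Without it, the difference of DDB2 was 0.59 (limma adjusted p = 0.0494) and that of XPC was 0.41 (limma adjusted p = 0.0836). The methods of the study describe an outlying sample set of 24 h that was discarded and do not say which arrays it held. All 12 arrays were kept here, and leaving out single arrays need not match that exclusion. Over all 12 arrays, the differences of DDB2 (0.6643) and XPC (0.4428) had the size of those the study printed for these genes, there with a minus sign. The printed differences thus match the fit with no array left out.

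RAD23B, the ubiquitin-receptor protein that stabilises XPC, had log2 expression of 10.73, 10.88 and 10.91 with cisplatin at 24 h, against 10.85, 10.95 and 10.68 untreated. At 48 h its values were 10.75, 10.83 and 10.72 with cisplatin, against 10.65, 10.80 and 10.72 untreated. The groups overlapped at both times, and the difference over both was 0.03 (95% interval -0.13 to 0.18). The sign of this small difference turned under quantile normalization (-0.0106) and with array weights (-0.00701).

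CETN2, the centrin of the XPC complex that is also a centriole protein, had a difference between those of RAD23B and XPC in size. At 24 h its log2 expression was 11.32, 11.30 and 11.55 with cisplatin, against 11.45, 11.13 and 11.16 untreated. At 48 h it was 11.57, 11.36 and 11.51 with cisplatin, against 11.41, 11.01 and 11.47 untreated. There were 3 cisplatin arrays above all untreated arrays, so the groups overlapped. The difference over both times was 0.16, with an interval of -0.04 to 0.37 that includes 0 (limma adjusted p = 0.991). Its upper bound lies above the lower bound of 0.28 for XPC. Without untreated 48 h replicate 2 the difference was 0.10, and over all single arrays left out it reached 0.21 at most.

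ERCC5 and ERCC8 act after or beside DDB2 and XPC, the sensors of global genome repair. ERCC5, the nuclease that cuts on the side 3′ to the lesion and also holds TFIIH in place, had a median log2 expression of 7.25 with cisplatin (7.12 to 7.39, 6 arrays), against 7.19 untreated (6.71 to 7.33, 6 arrays). Its difference of 0.14 had a 95% interval of -0.07 to 0.36. ERCC8, the substrate receptor that marks the stalled polymerase complex, had a median of 7.03 with cisplatin (6.86 to 7.12), against 6.98 untreated (6.72 to 7.54). Its difference of -0.01 had an interval of -0.26 to 0.24, and its sign turned under quantile normalization (0.0496) and with array weights (0.0375). The groups of both genes overlapped, with the highest ERCC8 value on untreated 48 h replicate 1 and the lowest ERCC5 value on untreated 24 h replicate 3. The transcription-coupled sensor ERCC6 and the scaffold XPA could not be set beside them. Untreated, ERCC5 (mean 7.11) and ERCC8 (7.03) stood near the endothelial markers VWF and CDH5 (7.21 each) and the fibroblast marker COL3A1 (7.11). Among other markers not typical of A549, PTPRC (3.83), DCN (4.20), CD3E (5.22) and PECAM1 (5.52) stood lower. COL1A1 (8.42) and CD68 (10.7) stood higher. Different probes read these genes, and whether ERCC5 and ERCC8 rose above background was not tested.

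**Figure D2:**
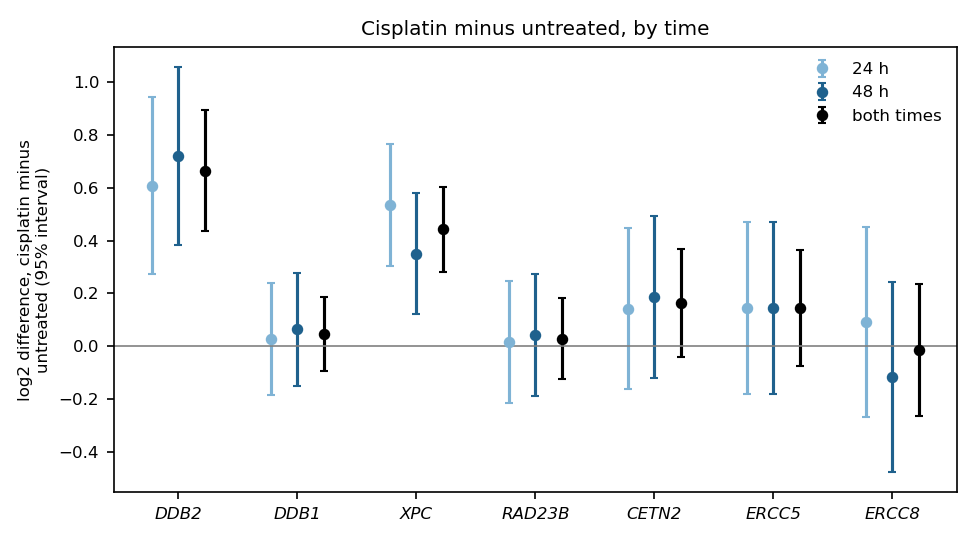
Difference in log2 expression, cisplatin minus untreated, of the 7 genes at 24 h, at 48 h and over both times (points), with 95% intervals from limma. The intervals of DDB2 and XPC lie above 0 in all 3 estimates, and those of the other 5 genes include 0.

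The effect of cisplatin was then taken at each time separately, in a fit with 4 groups of 3 arrays. At 24 h, DDB2 was 1.52-fold higher (log2 difference 0.61, SE 0.16, unadjusted p = 0.0017 in limma) and XPC was 1.45-fold higher (0.54, SE 0.11, unadjusted p = 0.000203 in limma). Both passed an unadjusted p under 0.005 in the higher direction, where 0.225% of all genes did. At 48 h, DDB2 was 1.65-fold higher (0.72, SE 0.16, unadjusted p = 0.000414 in limma), and XPC was 1.28-fold higher (0.35, SE 0.11) with an unadjusted limma p of 0.0056 that missed this limit. So 1 of the 7 genes passed it at 48 h, where 0.134% of all genes did. None of the 7 passed an adjusted p under 0.05 at either time, where 0.00703% of all genes passed at 24 h and 0.00% at 48 h.

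DDB2 had the larger difference at 48 h and XPC at 24 h, but neither difference between the times passed its own test, an adjusted or unadjusted p under 0.05 in limma. For DDB2 the effect at 48 h minus that at 24 h was 0.11 (95% interval -0.36 to 0.59). For XPC it was -0.18 (-0.51 to 0.14). These intervals leave room for changes between the times as large as the effect at 48 h of XPC. The share of all genes that passed an adjusted p under 0.05 for this difference was 0.00%, and at an unadjusted limma p under 0.05 there were 47 genes with a larger and 116 with a smaller difference at 48 h. The sign of the DDB2 estimate turned when untreated 24 h replicate 1 was left out (-0.0703).

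None of the other 5 genes passed an unadjusted p under 0.05 at either time. DDB1 differed by 0.03 at 24 h and 0.06 at 48 h, and RAD23B by 0.02 and 0.04. CETN2 differed by 0.14 at 24 h and 0.19 at 48 h, and ERCC5 by 0.14 at each time. With 1 array left out, CETN2 ran from 0.06 (without cisplatin 24 h replicate 3) to 0.24 (without untreated 24 h replicate 1) at 24 h, and from 0.04 (without untreated 48 h replicate 2) to 0.27 (without untreated 48 h replicate 3) at 48 h. ERCC8 had 0.09 at 24 h and -0.12 at 48 h. All 7 genes were positive at 24 h, with a median of 0.14 where that of all genes was 0.03, and 6 of 7 were positive at 48 h, with a median of 0.14 where that of all genes was -0.02. Small values at 24 h did not hold their sign: that of DDB1 (-0.0238) and of RAD23B (-0.0587) turned under quantile normalization. Without untreated 24 h replicate 3, the array that stood apart, DDB1 (-0.0206), RAD23B (-0.0587), ERCC5 (-0.0318) and ERCC8 (-0.0132) were negative at 24 h. That all 7 were positive at 24 h thus rested on this array.

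Time itself moved none of the 7 genes past an unadjusted p under 0.05, where 6.13% of all genes passed. XPC had the largest shift among the 7 from 24 h, at 0.12 higher at 48 h (95% interval -0.04 to 0.28), and RAD23B was 0.09 lower (-0.24 to 0.07).

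**Figure D3:**
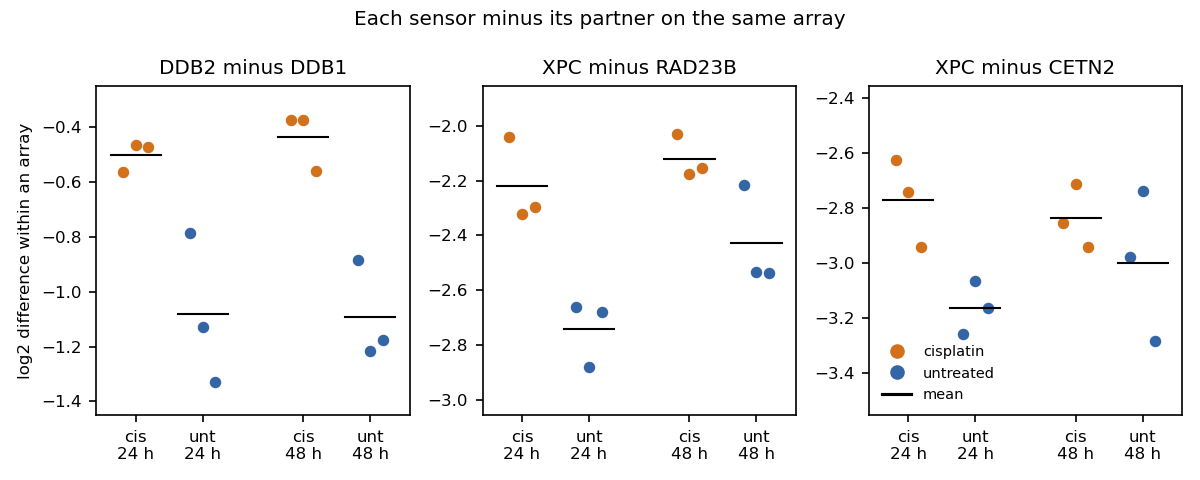
Log2 expression of DDB2 minus DDB1, of XPC minus RAD23B and of XPC minus CETN2 on the same array (points), by treatment and time, with the mean of 3 arrays. For DDB2 minus DDB1, the cisplatin arrays lie between -0.56 and -0.37 and the untreated arrays between -1.33 and -0.78.

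To set each sensor against its partner, their log2 values were subtracted within each array. Different probes read the 2 genes, so the height of such a difference has no meaning, and only its change between treatments was tested. The 3 pairs were chosen with the changes of DDB2 and XPC known. DDB2 minus DDB1 averaged -0.47 ± 0.08 with cisplatin and -1.09 ± 0.21 untreated (SD, n = 6 each), and the groups did not overlap. The change of 0.62, with 0.58 at 24 h and 0.66 at 48 h, had p = 0.005 in a two-sided exact permutation test that exchanged labels within each time. This is the smallest p that the 400 arrangements can give, and it was 0.0075 after adjustment over the 3 pairs.

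XPC minus RAD23B averaged -2.17 ± 0.12 with cisplatin and -2.58 ± 0.22 untreated (SD, n = 6 each). Over both times the groups overlapped. The lowest cisplatin array, replicate 2 of 24 h, was at -2.32, and the highest untreated array, replicate 1 of 48 h, was at -2.22. Within each time, where the test exchanges labels, the groups did not overlap. The change was 0.41, with 0.52 at 24 h and 0.31 at 48 h (two-sided exact permutation p = 0.005, 0.0075 after adjustment). XPC minus CETN2 averaged -2.80 ± 0.13 with cisplatin and -3.08 ± 0.20 untreated, and these groups also overlapped. The change was 0.28, with 0.39 at 24 h and 0.16 at 48 h (two-sided exact permutation p = 0.025, also after adjustment).

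The call for XPC against CETN2 was lost without any of 4 single arrays. The change was 0.26 (exact permutation p = 0.055) without untreated 24 h replicate 1, 0.28 (p = 0.05) without untreated 48 h replicate 1, 0.21 (p = 0.065) without untreated 48 h replicate 3 and 0.25 (p = 0.07) without cisplatin 48 h replicate 2. The calls for DDB2 against DDB1 and XPC against RAD23B held with each array left out. Within each time the groups of these 2 pairs did not overlap, so their calls could not be lost in this way.

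**Figure D4:**
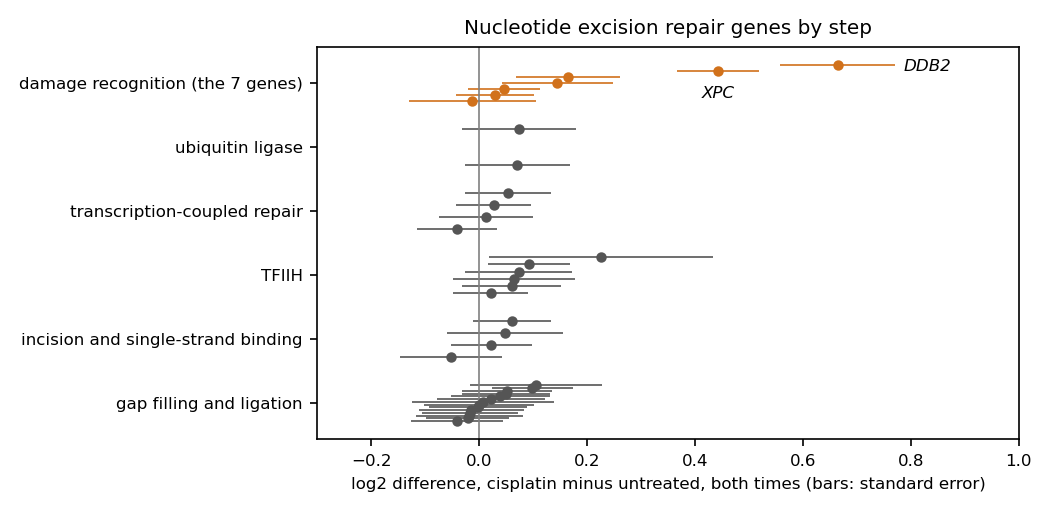
Difference in log2 expression, cisplatin minus untreated over both times, of the 7 damage recognition genes (orange) and of 30 other measured genes of nucleotide excision repair (grey), by step of the pathway. Bars are standard errors. DDB2 (0.66) and XPC (0.44) lie to the right of all other genes, of which the highest is GTF2H5 (0.23). The value of GTF2H5 was 0.05 without untreated 24 h replicate 3 and 0.40 without untreated 48 h replicate 1.

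Beyond damage recognition, no measured gene of the pathway passed a threshold. Of 40 other genes of nucleotide excision repair, 30 were measured, and 0 passed an unadjusted limma p under 0.05 in either direction over both times. Their median log2 difference was 0.03, with 21 positive, and their lowest limma adjusted p was 0.991. Several of the small positive values turned negative without untreated 24 h replicate 3. In the ligase that carries DDB1 and DDB2, CUL4A and CUL4B, its scaffold proteins, were each at 0.07, while RBX1, its RING subunit, had no row of its own. The sign of CUL4A turned without untreated 24 h replicate 3 (-0.0155). In transcription-coupled repair 4 of 6 genes were measured, with UVSSA, which brings in the deubiquitinase, at 0.05 and that deubiquitinase, USP7, at -0.04.

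TFIIH, the helicase complex that opens the DNA, had 6 of 10 subunits measured, all 6 positive over both times with a median of 0.07. This direction rested on single arrays. Without untreated 24 h replicate 3, ERCC3 (-0.0123), GTF2H3 (-0.0031) and CCNH (-0.0129) were negative. GTF2H1 was negative without cisplatin 24 h replicate 3 (-0.00108). The helicase ERCC2 was at 0.09 and the small subunit GTF2H5 at 0.23. The value of GTF2H5 was 0.05 without untreated 24 h replicate 3, the array that stood apart, and 0.40 without untreated 48 h replicate 1. At 24 h all 6 were positive, with a median of 0.11, but GTF2H1 (-0.0139) and GTF2H3 (-0.0648) were negative without untreated 24 h replicate 3. GTF2H5 was at 0.45 at 24 h, and at 0.11 without untreated 24 h replicate 3. At 48 h, 3 of these 6 were positive, with a median of 0.02. In the incision step 4 of 5 genes were measured, with ERCC1, the partner of the nuclease ERCC4, at 0.06 and the single-strand binding subunit RPA2 at -0.05. The sign of RPA2 turned without untreated 48 h replicate 1 (0.0028). The 14 of 16 genes of gap filling and ligation split into 7 positive and 7 negative, with LIG1, the replicative DNA ligase, at 0.10 and the polymerase POLK at 0.11. Of these 14, 12 were positive at 24 h and 5 at 48 h. The count at 24 h rested on untreated 24 h replicate 3. Without that array the 14 ran from -0.23 to 0.16 at 24 h, and most were negative. Of all genes, 57.9% were positive at 24 h, 42.2% at 48 h and 53.8% over both times.

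The genes whose pattern over the 12 arrays was most like that of DDB2 were MDM2, SULF2, TIGAR, POLH and RRM2B. Likeness was the root mean square difference between profiles, each centred on the mean of its gene, and its values were 0.08 for MDM2, 0.13 for SULF2, 0.14 for TIGAR and 0.17 for POLH and RRM2B. The median over all genes was 0.40. XPC stood at 0.19 and ranked 11 by likeness to DDB2, whereas DDB1 stood at 0.34. The genes most like XPC were NINJ1, RETSAT, CMBL, PLK3 and NADSYN1, at 0.10 to 0.12, where the median over all genes was 0.28. Of the partners of XPC, CETN2 stood at 0.21 and RAD23B at 0.26, and DDB2 ranked 331 by likeness to XPC. The measure describes these 12 arrays, which share the treatment, and was not tested.

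Among genes outside the pathway, CDKN1A, a p53 target that halts the cell cycle, rose by 1.14 on the log2 scale (limma adjusted p = 0.000254). The cells carried high signal for epithelial and A549 markers, and 5 of 7 were measured, at mean log2 expression of 11.4 to 13.6. Of these, ALDH3A1 was higher with cisplatin by 0.33 (limma adjusted p = 0.393) and was the only one of the 5 past an unadjusted p under 0.05. Of 9 markers of leukocytes, endothelium and fibroblasts, 0 passed an unadjusted limma p under 0.05, with a median difference of -0.12. Their mean log2 expression ranged from 3.79 for PTPRC to 10.8 for CD68, a lysosomal protein not limited to leukocytes, and their part in the results was not tested. PTPRC, which defines leukocytes, had 3.76 on cisplatin arrays and 3.83 on untreated arrays.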

How the data were processed

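RNA of A549 cells was measured on 12 Affymetrix Human Exon 1.0 ST arrays. The authors deposited RMA-normalized log2 values made with Affymetrix Power Tools and Expression Console, 1 per transcript cluster, which ranged from 2.14 to 14.31. The genome build of the array annotation is not given in the sources used here. Of 22011 rows, 14432 were paired with 1 gene, 2408 with several and 5171 with none in the probe table used here. The row with the highest mean over 12 arrays was kept per gene, which left 14232 genes. The number of arrays limits the precision, since arrays give no counts.

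Values were fitted in R 4.3.3 with limma 3.58.1, with terms for treatment and time, or with 4 groups for the effect at each time and the difference between times. Benjamini-Hochberg adjustment ran over all genes, with a call at an adjusted p under 0.05. Sensors and partners were compared within arrays by two-sided exact permutation tests. The fits were tested on simulated data. All 9 genes of the set were named, together with fixed lists of other repair genes, from each of which the 2 genes of smallest p were named, the 5 genes most like DDB2 and the 5 most like XPC. A gene of the lists is not reported here. ALDH3A1, the TFIIH genes ERCC3, GTF2H1, GTF2H3 and CCNH, and the 9 markers of leukocytes, endothelium and fibroblasts were named after their values were seen. The genes, lists and pairs were chosen with earlier results of these data known.

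Alternatives were leaving out each array, the replicate number as a block, the mean of a gene's rows, array weights, median centring, quantile normalization, robust variances with an intensity trend, a filter that kept the brighter genes, no time term and an unadjusted threshold. Promoter windows came from RefSeq (GRCh38.p14). Yeast growth, RT-qPCR and siRNA data of the study were not analysed here.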

Additional observations from a re-analysis of the deposited data

How the results depend on the processing

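The log2 differences of DDB2 (0.59 to 0.75) and XPC (0.41 to 0.48) over both times kept their direction under all 20 alternatives, while their limma adjusted p fell on either side of 0.05. The replicate block and no time term could not change these differences in a balanced design. Robust variances and the filter act only on p, and DDB2 and XPC have 1 row each, so the mean of rows is the same value. Agreement in direction under these settings was fixed in advance. DDB2 passed with the replicate block (0.66), quantile normalization (0.62), the mean of rows (0.66), no time term (0.66), array weights (0.65), robust variances with an intensity trend (0.66) and only the brighter genes (0.66), and its adjusted p ranged from 0.000541 to 0.205. XPC passed with the replicate block (0.44), quantile normalization (0.44), no time term (0.44), array weights (0.45), robust variances (0.44) and only the brighter genes (0.44), with an adjusted p from 0.000982 to 0.234. Leaving out 1 array gave 0.59 to 0.75 for DDB2, which passed without replicate 1 or 3 of untreated 24 h and without replicate 1 of untreated 48 h, and 0.41 to 0.48 for XPC, which passed without untreated 48 h replicate 1. In each of these settings both genes passed an unadjusted p under 0.005. The filter keeps the 7116 genes above the median level, which excludes ERCC5 and ERCC8. In the settings that could not change the differences, only the estimated spread or the other genes could change a call. For the remaining settings the cause was not tested.

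Over both times, 4 genes were called in the main setting, 17 with the replicate block, 12 with quantile normalization, 55 with array weights, 14 with the trend, 17 among the brighter genes, 13 with no time term, 64 at an unadjusted p under 0.005 and 3 to 18 with 1 array left out, with 18 without untreated 48 h replicate 1 and 7 without untreated 24 h replicate 1. At 24 h 1 gene was called, against 37 at the unadjusted threshold, 2 with the trend, 2 among the brighter genes and 0 to 3 with 1 array left out (3 without untreated 24 h replicate 1, 0 without untreated 24 h replicate 2 or any cisplatin 24 h array). At 48 h 0 were called, against 27 at the unadjusted threshold, 1 each with quantile normalization, the trend and the brighter genes, and 0 to 1 with 1 array left out (1 without untreated 24 h replicate 1 or 3). For the difference between times 0 were called, against 5 at the unadjusted threshold and 0 to 1 with 1 array left out (1 without untreated 24 h replicate 1).

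Some small differences changed sign. RAD23B over both times was -0.0106 with quantile normalization and -0.00701 with array weights, and ran from -0.00274 to 0.0574 with 1 array left out. ERCC8 was 0.0496 with quantile normalization and 0.0375 with array weights, and ran from -0.0704 to 0.0936. At 24 h, quantile normalization gave -0.0238 for DDB1 and -0.0587 for RAD23B, and leaving out 1 array gave -0.0206 to 0.0634 for DDB1, -0.0587 to 0.0766 for RAD23B, -0.0318 to 0.279 for ERCC5 and -0.0132 to 0.187 for ERCC8. The negative ends of these ranges all came without untreated 24 h replicate 3. At 48 h ERCC8 ran from -0.268 to 0.0962, where the positive value came without untreated 48 h replicate 1. The difference between times of DDB2 ran from -0.0703 (without untreated 24 h replicate 1) to 0.285. XPC minus CETN2 ran from 0.21 to 0.34, and its p missed 0.05 in 4 of the 12 cases.

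Array weights could not be fitted in the 4-group fit, which did not converge, and were not run for the effects at each time. Nothing in the labels says that a replicate number marks an experiment. Of 18 pairs of arrays with the same number, 10 had a correlation of deviations over 0.1 (-0.39 to 0.64), and 9 of 12 arrays correlated best with their own number, as a hint from the data. The untreated and cisplatin pairs that the block tests exchange had -0.34, 0.21 and -0.39 for replicates 1 to 3 at 24 h. At 48 h these pairs had 0.31, 0.60 and 0.17. With the replicate block the 3 pair tests each gave an exact permutation p of 0.0312, the smallest that 64 arrangements can give. No scaling moved the median of all genes by over 0.1 on the log2 scale. A median does not show a difference in spread. The interquartile range of untreated 24 h replicate 3 was 2.71, against 3.03 to 3.35 on the other arrays.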
